A study of Mus musculus with 6 samples.

Results

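The genes of the oligodendrocyte lineage were followed through 6 mouse brain tumor libraries, from the precursor stage to the myelin sheath. The set holds 35 genes taken from a list of known lineage markers, of which 11 mark precursors, 7 mark committed and newly forming oligodendrocytes and 17 belong to myelin. All 35 were found among the 24537 gene rows of the count table. The tumors arose in CD-1 IGS mice after in utero electroporation, in which plasmids injected into the embryonic brain enter its cells under an electric field. Every tumor received the mutant receptor gene PdgfraD482V and DNp53, a dominant-negative p53. Per the titles, 3 also received the forkhead gene FOXR2 and 3 were controls without it. The promoter that drove the constructs, the age of the animals, the part of the brain and whether each tumor came from its own animal are not stated in the labels. The p-values below therefore measure only how these samples spread.

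The grouping needs a caution that holds for every direction given. The deposited sample sheet puts 6 of 6 libraries in the group opposite to their title. Libraries are therefore called titled FOXR2 and titled Control, and if the sheet is right every direction turns round. Foxr2 itself gave 22, 1 and 7 counts under the FOXR2 title and 4, 10 and 7 under the Control title, which does not settle the question. Each library held 13429489 to 17927025 counts. FOXR2 replicate 2 stood apart by its microglia and macrophage markers, whose summed level was 1980 CPM there and 48 to 69 CPM in the other 5 libraries (CPM, read counts brought to one library size with TMM correction). Medians over the gene groups, and fold changes that its removal moved most, are given without it as well.

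Oligodendrocytes come from precursor cells that divide, carry the receptor Pdgfra on their surface and are held in the lineage by the transcription factors Olig1 and Olig2. Precursors that leave the cell cycle pass through a short committed stage, marked by Gpr17, Bcas1 and Enpp6, in which the transcription factor Myrf is switched on. Myrf and its partners then drive the genes whose products build and hold the compact myelin sheath. In gliomas driven by PDGF signalling, precursor genes are typically abundant.

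Most precursor genes were abundant in all 6 tumors, and they varied less than the later genes, although more than the median of all genes. Committed and myelin genes differed many-fold between tumors with the same title. The summed level of the 11 precursor genes was 7220, 5350 and 6540 CPM in FOXR2 replicates 1, 2 and 3. In Control replicates 1, 2 and 3 it was 4910, 3690 and 5090 CPM, each below every library titled FOXR2. That separation was narrow, at 5350 CPM in FOXR2 replicate 2 against 5090 CPM in Control replicate 3. Without Ptprz1 the other 10 genes summed to 5730, 4080 and 5040 CPM against 4060, 3010 and 4520 CPM, and the groups overlapped. Olig1 alone also differed by more than that gap, at 1110 CPM in FOXR2 replicate 2 and 568 CPM in Control replicate 3. The 7 committed genes summed to 482, 2010 and 689 CPM in the libraries titled FOXR2 and to 983, 419 and 2490 CPM in those titled Control. The 17 myelin genes summed to 569, 5460 and 1700 CPM in the libraries titled FOXR2 and to 2100, 634 and 4340 CPM in those titled Control. FOXR2 replicate 2 and Control replicate 3 were thus the highest libraries for both later stages, one from each title, and FOXR2 replicate 1 and Control replicate 2 were the lowest, again one from each. In bulk tumor RNA, fewer cells of a type and less RNA per cell cannot be told apart.

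**Figure D1:**
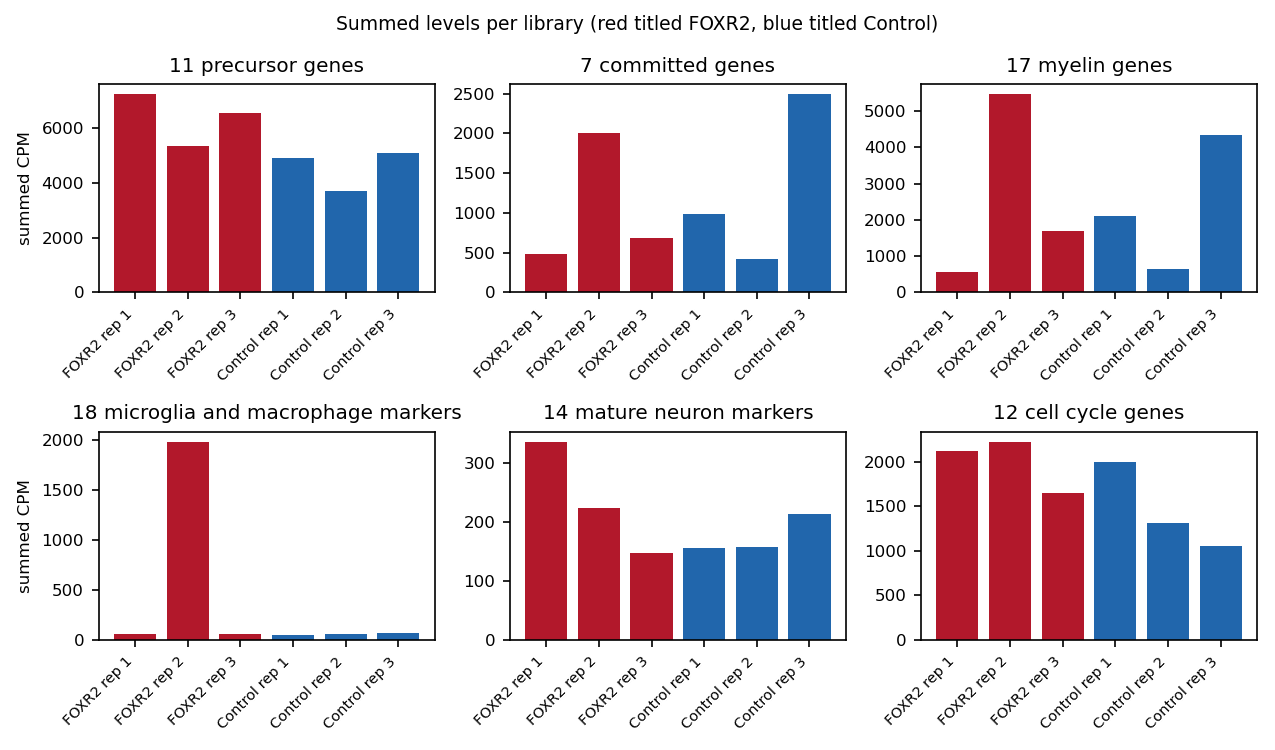
Summed CPM (vertical axis, from 0) of 6 gene groups in each library (horizontal axis), with bars in red for libraries titled FOXR2 and in blue for those titled Control. The myelin sum is highest in FOXR2 replicate 2 at 5460 CPM and Control replicate 3 at 4340 CPM, and the microglia and macrophage sum is high in FOXR2 replicate 2 alone at 1980 CPM.

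The comparison of titles asks how tumors with FOXR2 differ from tumors without it. Of the 35 genes, 31 passed the filter on low counts, and Mog, Mobp, Ermn and Aspa did not. With edgeR's quasi-likelihood test, 0 of the 31 were called higher under the FOXR2 title and 0 lower, at an adjusted p under 0.05, where 0.908% and 1.38% of the 13101 tested genes were called. At an unadjusted p under 0.05 there were 3, Ptprz1, Lhfpl3 and Trf, against 24.9% of all tested genes. DESeq2 called 2 of the 35 members higher, where it called 947 of the 18511 genes it fitted higher. These were Ptprz1, with a fitted log2 difference of 1.02 (DESeq2 adjusted p = 6e-04), and Mobp, with 5.03 (DESeq2 adjusted p = 0.0287). Mobp is a gene with 116 counts in FOXR2 replicate 2 and at most 5 in any other library. The median log2 fold change was 0.34 for the precursor genes, -0.18 for the committed genes and -0.24 for the 13 tested myelin genes, beside 0.01 for all tested genes. Without FOXR2 replicate 2 the myelin median was -1.35, and without Control replicate 3 it was 0.79. It was 0.31 with DESeq2 and 0.28 with no filter on low counts. The committed median was -0.83 without FOXR2 replicate 2, -0.49 without Control replicate 2 and 0.24 without Control replicate 3. The precursor median was 0.51 without FOXR2 replicate 2 and, at its lowest with 1 library left out, 0.13 without FOXR2 replicate 1. With FOXR2 replicate 2 and Control replicate 3 both left out, the medians were 0.54 for precursor, -0.17 for committed and -0.31 for myelin genes.

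**Figure D2:**
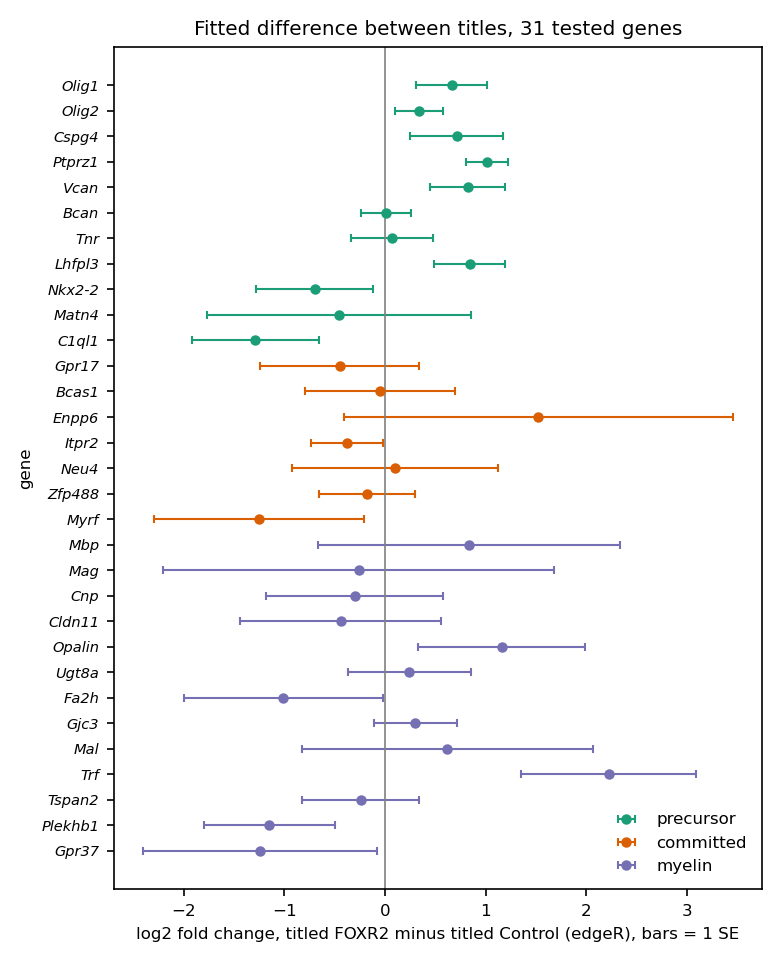
Fitted log2 fold change (horizontal axis, titled FOXR2 minus titled Control) of the 31 tested genes (vertical axis), with bars of 1 standard error and colours for the 3 stages. Ptprz1 at 1.01 has a short bar, while Enpp6 at 1.52 ± 1.93 and Mag at -0.26 ± 1.94 have bars that cross 0.

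Among the precursor genes, Olig1 and the matrix gene Bcan came first in level. Compared per kilobase of the longest annotated transcript, Olig1 had the highest mean level over the 6 libraries at 473 CPM per kilobase, followed by Bcan at 362 and Olig2 at 240. Olig1 stood at 1210, 1110 and 1440 CPM in the libraries titled FOXR2 and at 1270, 544 and 568 CPM in those titled Control. Control replicates 2 and 3 were low and Control replicate 1 lay inside the other group, so the groups overlapped (log2 fold change 0.66 ± 0.35 standard error, edgeR adjusted p = 0.288). Olig2, its partner and the factor that specifies the lineage, spread by no more than 1.82-fold over the 6 libraries, from 446 to 813 CPM. The homeodomain factor Nkx2-2, which acts as precursors start to differentiate, ran from 36.9 to 168 CPM and was highest in Control replicate 3.

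Ptprz1 was the one precursor gene whose title groups did not overlap. It encodes a receptor tyrosine phosphatase that carries chondroitin sulfate chains and is made by precursors, radial glia and many gliomas. Its level was 1490, 1270 and 1500 CPM in the libraries titled FOXR2 and 856, 680 and 579 CPM in those titled Control. Every library titled FOXR2 was above every library titled Control, with means of 1420 ± 129 and 705 ± 140 CPM (SD, n = 3 each). The log2 fold change was 1.01 ± 0.21, and its adjusted p of 0.0536 in edgeR missed the threshold. Without FOXR2 replicate 2 the log2 fold change was 1.08 (edgeR adjusted p = 0.0705). Once transcript length and GC content were corrected for, it was 0.77 (edgeR adjusted p = 0.0697). With 1 library left out, the edgeR adjusted p ran from 0.0705 to 0.196, the highest without Control replicate 2. In edgeR it was 0.138 with the replicate number as a block and 0.131 with animal sex as a covariate. The adjusted p from limma-voom was 0.0526. Of the 31 tested members, 1 had all libraries titled FOXR2 above and 0 had all libraries titled Control above, while 13.1% and 17.2% of all tested genes did.

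The surface and matrix genes of precursors overlapped between the titles. Lhfpl3, a membrane protein much used as a precursor marker, stood at 465, 301 and 210 CPM in the libraries titled FOXR2 and at 144, 152 and 250 CPM in those titled Control. FOXR2 replicate 3 fell below Control replicate 3, so the groups overlapped (log2 fold change 0.84 ± 0.35, edgeR adjusted p = 0.192). Vcan, which encodes the large matrix proteoglycan versican, reached 321, 142 and 389 CPM against 141, 141 and 200 CPM. Here FOXR2 replicate 2 sat within the Control range (log2 fold change 0.82 ± 0.37, edgeR adjusted p = 0.222). Bcan, which encodes brevican, a proteoglycan of the brain matrix that astrocytes make too, was 987, 1230 and 1190 CPM against 1020, 867 and 1510 CPM. The libraries titled Control enclosed those titled FOXR2, and the fitted log2 fold change was 0.01 ± 0.25 (edgeR adjusted p = 0.992). Cspg4, the NG2 proteoglycan by which precursors are usually stained, ran from 362 CPM in FOXR2 replicate 2 to 1400 CPM in FOXR2 replicate 1. The matrix glycoprotein gene Tnr ran from 147 to 421 CPM.

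Matn4 and C1ql1 were the precursor genes that varied most. They are described with values chosen after those values were seen. Matn4, which encodes a matrilin of the extracellular matrix, had 0.261, 73.2 and 48.7 CPM in the libraries titled FOXR2 and 20.9, 27.1 and 120 CPM in those titled Control. It was near absent from FOXR2 replicate 1, with 4 counts, and highest in Control replicate 3, a span of 461-fold. C1ql1, a secreted protein of the C1q family, had 95.7, 41.7 and 15.9 CPM against 121, 71.4 and 183 CPM, so that Control replicate 3 was again the highest and the groups overlapped (log2 fold change -1.29 ± 0.63, edgeR adjusted p = 0.252).

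**Figure D3:**
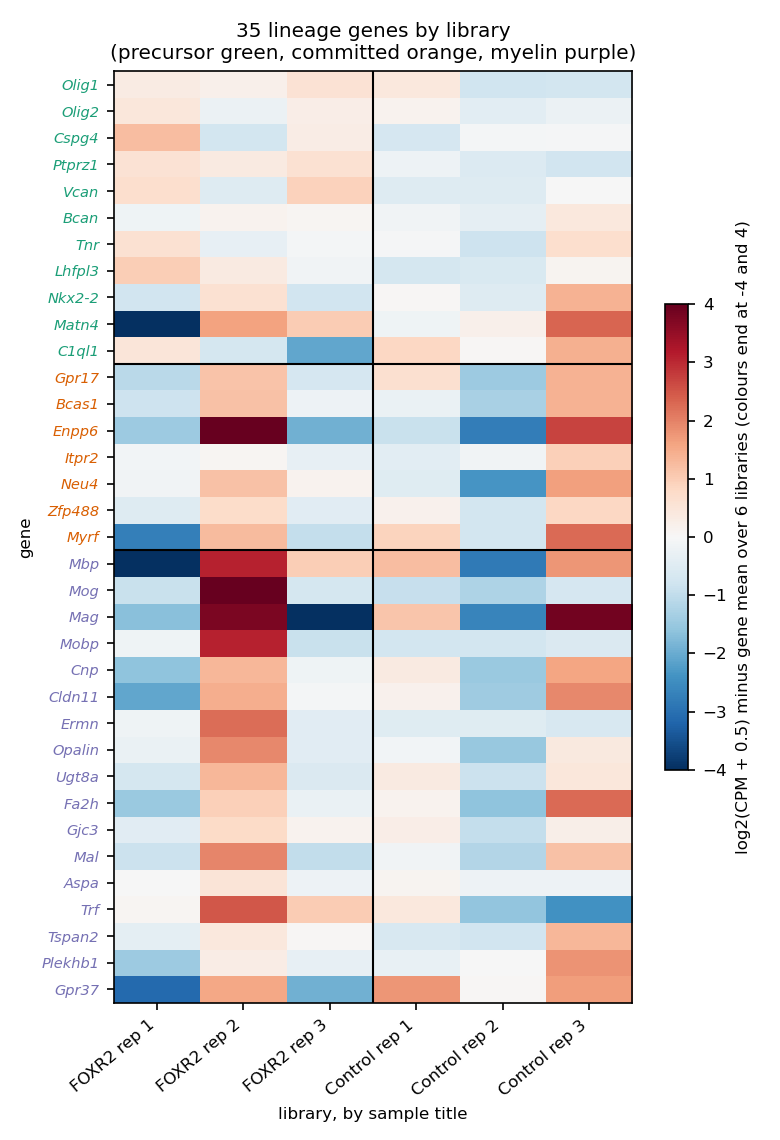
Level of each of the 35 genes (vertical axis, grouped by stage) in each library (horizontal axis), as log2(CPM + 0.5) minus the mean of that gene over the 6 libraries, with colours ending at -4 and 4. Committed and myelin genes are above their mean in FOXR2 replicate 2 and Control replicate 3 for most rows. Trf, Mog, Mobp, Ermn and Aspa are below theirs in Control replicate 3.

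Committed-stage genes marked out the same pair of tumors. All 7 of them had FOXR2 replicate 2 and Control replicate 3 as their 2 highest libraries, as did 10 of the 13 tested myelin genes and 3 of the 11 precursor genes. That makes 20 of the 31 tested members, beside 6.3% of all tested genes, and the pair of libraries was chosen after the values were seen. Control replicate 3 was the highest library for 17 members and FOXR2 replicate 2 for 7, where the shares of all tested genes were 18.4% and 15.4%. Control replicate 2 was the lowest for 15 of the 31 (16.2% of all tested genes) and the highest for 0.

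Myrf, the membrane-bound transcription factor needed for myelin gene expression, had 14.5, 237 and 50.3 CPM in the libraries titled FOXR2 and 184, 59.2 and 476 CPM in those titled Control. Control replicate 3 was 32.9-fold above FOXR2 replicate 1, and high and low libraries occurred under both titles (log2 fold change -1.25 ± 1.04, edgeR adjusted p = 0.496). Its log2 fold change was -2.89 when FOXR2 replicate 2 was left out and -0.28 when Control replicate 3 was. Gpr17, a G protein-coupled receptor that appears as precursors commit and is lost again as they mature, had 81.6, 384 and 108 CPM against 270, 62.8 and 452 CPM. Its groups overlapped, with the low end in Control replicate 2 (log2 fold change -0.45 ± 0.79, edgeR adjusted p = 0.761). Bcas1, which marks oligodendrocytes that have just begun to myelinate, was the most abundant of the stage at 210 CPM per kilobase. It had 279, 1120 and 431 CPM against 412, 202 and 1280 CPM, with the same 2 libraries far above the other 4.

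Enpp6 was scarce outside those tumors, and Neu4 was low in every library, at 14.9 CPM or less. Enpp6, a choline-releasing phosphodiesterase of newly forming oligodendrocytes, had 1.5, 106 and 0.949 CPM in the libraries titled FOXR2 and 2.46, 0.298 and 35 CPM in those titled Control. FOXR2 replicate 2 exceeded Control replicate 2, which had 5 counts, by 355-fold (log2 fold change between titles 1.52 ± 1.93, edgeR adjusted p = 0.664). Leaving out FOXR2 replicate 2 brought the log2 fold change of Enpp6 to -3.35, and leaving out Control replicate 3 brought it to 4.69. Neu4, a sialidase, had 3.98, 10.8 and 5.03 CPM against 3.06, 0.477 and 14.9 CPM, and its groups overlapped. Itpr2, an intracellular calcium channel, stayed between 51.3 and 134 CPM, with 63.4, 72.8 and 54.6 CPM against 51.3, 62.9 and 134 CPM, and was set apart in Control replicate 3 only. Zfp488, a zinc finger protein that promotes differentiation, lay between 31.8 and 94.8 CPM.

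Myelin genes spread the most. Of the 13 tested, 12 differed by at least 4-fold between their highest and lowest library on the log2(CPM + 0.5) scale, as did 5 of the 7 committed and 3 of the 11 precursor genes. Over the 31 tested members this came to 20, where the share of all tested genes was 17.4%. The median range was 3.43 on the log2 scale for myelin genes, 2.84 for committed genes and 1.51 for precursor genes, beside 1.09 for all tested genes.

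Mbp encodes myelin basic protein, which holds the inner faces of the sheath together. It had 14.2, 2290 and 542 CPM in the libraries titled FOXR2 and 640, 37.9 and 929 CPM in those titled Control. FOXR2 replicates 1 and 2 were the lowest and the highest of all 6, a span of 161-fold inside one title (log2 fold change 0.83 ± 1.5, edgeR adjusted p = 0.768). Without FOXR2 replicate 2 the log2 fold change was -0.95. Cnp, a cyclic nucleotide phosphodiesterase that keeps cytoplasm in the channels of the sheath and is made early in differentiation, was the most abundant myelin gene per length at 227 CPM per kilobase. Its values were 154, 1200 and 419 CPM against 606, 168 and 1410 CPM. Control replicate 3 was the highest and FOXR2 replicate 1 the lowest (log2 fold change -0.3 ± 0.88, edgeR adjusted p = 0.859).

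Mag, an adhesion molecule of the innermost myelin layer, had the widest range of any member. It had 7.37, 341 and 0.73 CPM in the libraries titled FOXR2 and 53.5, 3.52 and 363 CPM in those titled Control, which corresponds to 113, 5395 and 10 counts against 892, 59 and 6245 counts. FOXR2 replicate 2 and Control replicate 3 were nearly equal, and each was far above the other libraries of its own title. The difference between titles was -0.26 ± 1.94 on the log2 scale (edgeR adjusted p = 0.947). It was -5.1 when FOXR2 replicate 2 was left out and 2.02 when Control replicate 3 was. Cldn11, the claudin of the tight junctions in central myelin, ranged from 30.3 CPM in FOXR2 replicate 1 to 495 CPM in Control replicate 3, with 355 CPM in FOXR2 replicate 2.

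**Figure D4:**
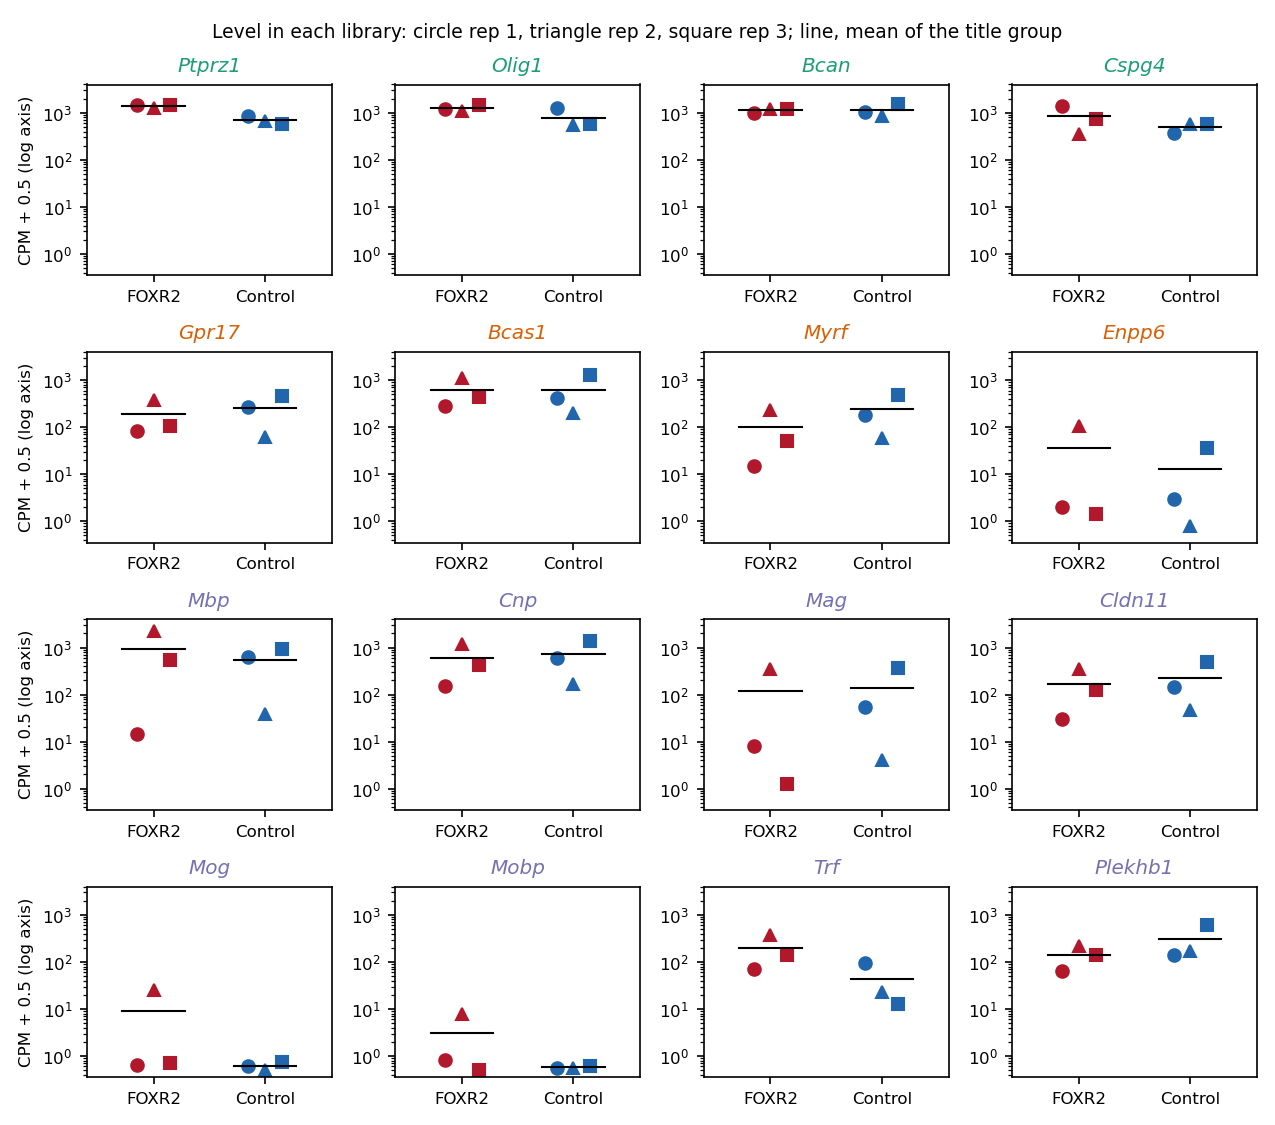
CPM + 0.5 (vertical axis, log scale, the same in every panel) of 16 genes in libraries titled FOXR2 (red) and titled Control (blue), with a circle, triangle and square for replicates 1, 2 and 3 and a line at the mean of each title. The FOXR2 triangle and the Control square lie at the top for the committed genes and for Cnp, Mag and Cldn11, while Mog and Mobp rise above the rest only at the FOXR2 triangle.

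Mog, Mobp and Ermn parted the pair. Mog, which encodes a glycoprotein of the outermost myelin surface and appears late, gave 2, 398 and 3 counts under the FOXR2 title and 2, 0 and 4 counts under the Control title. FOXR2 replicate 2 was the one library above 4 counts, at 25.2 CPM, and Control replicate 3 stood at 0.232 CPM in spite of its high Mag. Mobp, a basic protein of compact myelin, had 5, 116 and 0 counts against 1, 1 and 2, and Ermn, a cytoskeletal protein of mature oligodendrocytes, had 3, 50 and 1 counts against 1, 1 and 0. Both followed Mog, although they were taken up for that reason after their values were seen. Aspa, the enzyme that splits N-acetylaspartate, had at most 5 counts in any library. A count of 3 corresponded to 0.174 to 0.219 CPM, so Mog, Mobp, Ermn and Aspa were at or near that floor outside FOXR2 replicate 2, and this floor covers counting error only.

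Other myelin genes were intermediate. Opalin, a transmembrane glycoprotein of central myelin, had 3.65, 18.4 and 3.14 CPM against 4.08, 1.25 and 5.93 CPM. FOXR2 replicate 2 was the highest and the other 5 libraries lay below 6 CPM (log2 fold change 1.16 ± 0.83, edgeR adjusted p = 0.427). Gjc3, a connexin of glial cells, had the narrowest range among the tested myelin genes, with 168, 394 and 255 CPM against 279, 118 and 269 CPM, and its groups overlapped (log2 fold change 0.3 ± 0.41, edgeR adjusted p = 0.697). The lipid enzymes Ugt8a and Fa2h, which make the galactolipids of myelin, ran from 26.9 to 123 CPM and from 3.87 to 62.4 CPM. Ugt8a was highest in FOXR2 replicate 2 and Fa2h in Control replicate 3. The proteolipid gene Mal reached 4.43 CPM in FOXR2 replicate 2 and 2.38 CPM in Control replicate 3 and stayed at or below 0.66 CPM elsewhere. The tetraspanin gene Tspan2 ran from 15.9 CPM in Control replicate 2 to 68.6 CPM in Control replicate 3. The receptor gene Gpr37 had 1.11, 40.2 and 3.21 CPM against 47.6, 14 and 43.9 CPM, so that it was highest in Control replicate 1. Its log2 fold change was -1.24 ± 1.16 (edgeR adjusted p = 0.543). Without FOXR2 replicate 2 this became -4.03 (edgeR adjusted p = 0.0514), also short of the threshold, and without FOXR2 replicate 1 it was -0.69. With FOXR2 replicate 2 and Control replicate 3 both left out it was -3.84 (edgeR adjusted p = 0.0766).

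Trf and Plekhb1 went different ways in the pair. Trf encodes transferrin, the iron carrier that oligodendrocytes make in the brain, and had 71.4, 383 and 140 CPM in the libraries titled FOXR2 and 92.3, 22.3 and 12.4 CPM in those titled Control. It was highest in FOXR2 replicate 2 and lowest in Control replicate 3, 30.9-fold apart, and Control replicate 1 lay above FOXR2 replicate 1. The log2 fold change was 2.22 ± 0.87 (edgeR adjusted p = 0.175), and 1.31 without FOXR2 replicate 2 (edgeR adjusted p = 0.351). Plekhb1, a membrane-binding protein found in myelin, had 63.2, 214 and 140 CPM against 142, 174 and 610 CPM. Control replicate 3 was the highest and FOXR2 replicate 2 the next, and the groups overlapped (log2 fold change -1.15 ± 0.65, edgeR adjusted p = 0.313). When Control replicate 3 was left out, the log2 fold change of Plekhb1 was -0.19.

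Set side by side, FOXR2 replicate 2 exceeded Control replicate 3 in 6 of the 13 tested myelin genes, 1 of the 7 committed genes and 3 of the 11 precursor genes, while it did so in 48.8% of all tested genes. The committed gene was Enpp6, at 106 against 35 CPM. The myelin genes were Mbp, Opalin, Ugt8a, Gjc3, Mal and Trf, and the untested Mog, Mobp, Ermn and Aspa were also higher there. Among committed and myelin genes, Myrf, Plekhb1, Fa2h, Tspan2 and Itpr2 were furthest to the other side, at 0.351 to 0.544 of the level in Control replicate 3. These genes were sorted after their values were seen, and no test was made of 1 library against another.

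**Figure D5:**
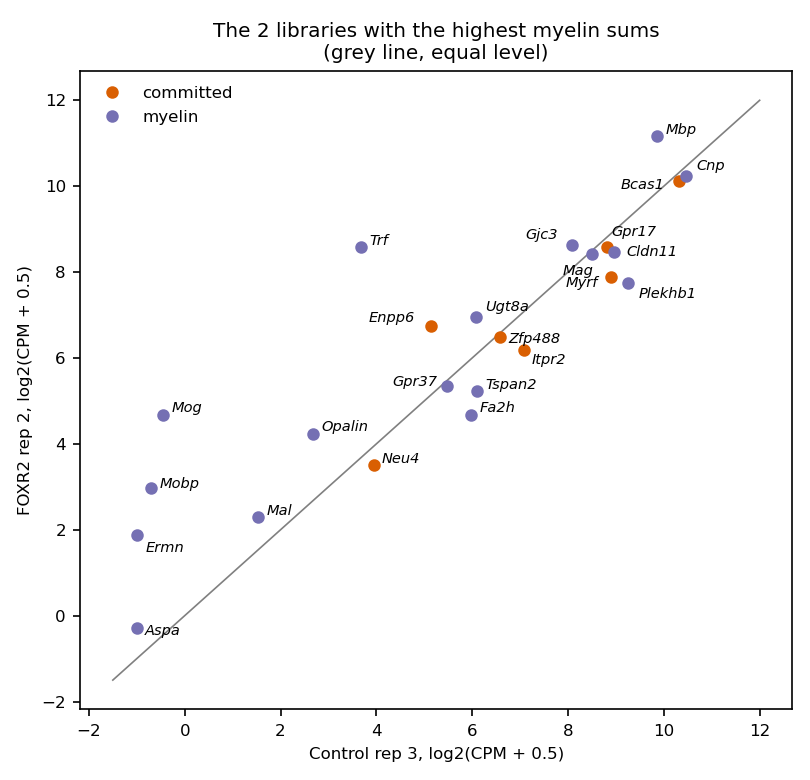
Level of the 24 committed and myelin genes in Control replicate 3 (horizontal axis) and FOXR2 replicate 2 (vertical axis), both as log2(CPM + 0.5), with a grey line at equal level. Most genes lie near the line, while Mog, Mobp, Ermn and Trf lie above it at 25.2, 7.34, 3.16 and 383 CPM in FOXR2 replicate 2 against 0.232, 0.116, 0 and 12.4 CPM in Control replicate 3.

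Markers of other cell types moved with part of this pattern. All 18 microglia and macrophage markers were in the table and each was highest in FOXR2 replicate 2. C1qa had 3599 counts there and 3 to 14 elsewhere, Csf1r 1978 and 1 to 5, and Tyrobp 586 and 0 to 1. The markers of endothelial cells summed to 4.35 to 18.9 CPM and those of mural cells and fibroblasts to 25.2 CPM in FOXR2 replicate 2 and 1.01 to 3.5 CPM elsewhere. In Control replicate 3 the microglia and macrophage markers summed to 69 CPM. FOXR2 replicates 1 and 3 and Control replicates 1 and 2 had 48 to 60.6 CPM. The 7 committed genes summed to 2490 CPM in Control replicate 3 and the 17 myelin genes to 4340 CPM. Any link of these sums to the microglia and macrophage markers was not tested. Mature neuron markers summed to 147 to 336 CPM with the highest value in FOXR2 replicate 1, but they did not move together. Syt1 alone gave 153 CPM of that highest sum. Of the 13 tested neuron markers, 4 were highest in FOXR2 replicate 1, 4 in FOXR2 replicate 2 and 3 in Control replicate 3. The part of any of these cell types in the levels of Mog, Mobp, Ermn and Trf in FOXR2 replicate 2 was not tested. Astrocytes can also make Bcan and Ptprz1. Their 10 markers summed to 1900 CPM in FOXR2 replicate 3 and 618 to 859 CPM elsewhere, but they did not move together. Aldoc alone gave 1150 CPM of that sum, and 5 of the 10 were highest in FOXR2 replicate 3. Aqp4, Aldh1l1 and Gja1 were lowest in the same library, at 0.365, 12.5 and 0.146 CPM. The part of astrocytes in the precursor genes was not tested. The 12 cell cycle genes summed to 2130, 2230 and 1650 CPM in the libraries titled FOXR2 and to 2000, 1310 and 1050 CPM in those titled Control, with the lowest value in Control replicate 3.

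Further genes of the pathway, from lists of known markers, gave no calls either. Of 18 further precursor genes, 18 were tested and 0 were called. Of 14 further committed genes, 14 were tested and 0 were called. Of 26 further myelin genes, 22 were tested and 0 were called. Of all tested genes 0.908% were called higher and 1.38% lower, so lists this short would hold few calls or none. At an unadjusted p under 0.05 in edgeR there were 9, 0 and 4 genes of the respective lists, where the share of all tested genes was 24.9%. All libraries titled FOXR2 lay above all titled Control for 5 of the 18 further precursor genes and the reverse held for 2, beside 13.1% and 17.2% of all tested genes. FOXR2 replicate 2 and Control replicate 3 were the 2 highest libraries for 1 of the 18, 9 of the 14 and 10 of the 22, beside 6.3% of all tested genes.

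Promoter sequences are shown for 4 myelin genes because Cnp and Mag were high in both tumors of the pair, whereas Mog and, less sharply, Opalin stood out in FOXR2 replicate 2. RefSeq windows on GRCm38.p6, from 250 bases before to 50 bases after the annotated start, were matched for 27 of the 35 genes. Capitals mark 4 short motifs searched on both strands, which do not overlap each other in these windows. They are ACAAAG, the core bound by Sox factors, CAGCTG and CAGATG, which are E-boxes of the kind bound by Olig factors, and CTGGCAC, a core bound by Myrf. The strand printed is that of the gene, so a match on the other strand appears as its reverse complement. The Cnp window lies at chr11:100574689-100574988 on the plus strand, Mag at chr7:30914814-30915113 on the minus strand, Opalin at chr19:41077064-41077363 on the minus strand and Mog at chr17:37023349-37023648 on the minus strand.
Cnp: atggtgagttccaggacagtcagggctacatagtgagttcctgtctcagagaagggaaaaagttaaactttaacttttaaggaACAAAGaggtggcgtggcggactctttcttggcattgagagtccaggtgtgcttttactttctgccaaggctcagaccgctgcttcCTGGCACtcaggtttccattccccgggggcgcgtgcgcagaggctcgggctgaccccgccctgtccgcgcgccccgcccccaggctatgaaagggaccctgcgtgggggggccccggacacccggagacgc
Mag: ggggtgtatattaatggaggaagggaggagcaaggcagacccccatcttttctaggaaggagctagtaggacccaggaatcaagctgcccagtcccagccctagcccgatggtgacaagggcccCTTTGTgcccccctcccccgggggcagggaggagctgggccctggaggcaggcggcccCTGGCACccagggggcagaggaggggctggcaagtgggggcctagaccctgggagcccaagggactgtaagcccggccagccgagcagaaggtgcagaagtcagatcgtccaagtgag
Opalin: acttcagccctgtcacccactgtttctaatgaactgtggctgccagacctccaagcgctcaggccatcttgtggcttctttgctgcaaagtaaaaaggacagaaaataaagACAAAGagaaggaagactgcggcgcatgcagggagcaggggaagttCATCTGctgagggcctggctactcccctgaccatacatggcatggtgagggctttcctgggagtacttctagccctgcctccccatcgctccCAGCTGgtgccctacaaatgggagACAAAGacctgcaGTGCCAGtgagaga
Mog: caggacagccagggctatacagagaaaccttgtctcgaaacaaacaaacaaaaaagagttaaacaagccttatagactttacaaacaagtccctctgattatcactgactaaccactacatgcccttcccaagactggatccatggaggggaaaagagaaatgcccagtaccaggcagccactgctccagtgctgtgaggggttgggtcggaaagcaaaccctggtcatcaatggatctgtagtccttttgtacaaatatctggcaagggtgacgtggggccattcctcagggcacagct

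The Cnp, Mag and Opalin windows shown each held CTGGCAC, and none of the 4 motifs occurred in the Mog window. Another Mag window, at chr7:30914272-30914571, held none of the 4 either. Cldn11, also high in both tumors of the pair, had none in its window. Mobp, which followed Mog, had 6 matches to ACAAAG. Any link between motifs and levels was not tested. Over all windows of members, CTGGCAC was found in 4 of 18 myelin windows, which belong to 3 genes since 2 Mag windows overlap, and in 0 of 10 precursor and 0 of 4 committed windows. It was present in 5.01% of the 32851 windows in the table. ACAAAG was found in 7 of 18 myelin windows, 1 of 10 precursor windows and 0 of 4 committed windows, and in 18.7% of all windows. CAGATG was found in 6 of 18 myelin windows (17.2% of all windows) and CAGCTG in 2 of 18 (16.3% of all windows). A match is a stretch of letters and not a shown binding site.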

How the data were processed

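Poly(A) RNA from snap-frozen tumors was made into directional libraries, and single 51-base reads were sequenced (per the labels' protocols). Raw counts per gene symbol, in whole numbers, are what the authors deposited. TopHat and DESeq2 are named, without versions, in the submitters' processing notes, which also list the human build hg19 for these mouse symbols. Not given in the sources used here are the counting tool, the annotation, the treatment of multi-mapping reads and whether strand was used. Another 23 rows held dates and were not named.

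Groups and replicate numbers came from the titles. The model was fitted in edgeR 4.0.16 (R 4.3.3) and had no covariate. The filter filterByExpr (count minimum 10) left 13101 genes, and TMM factors were 0.961 to 1.03. A quasi-likelihood F test compared 3 libraries titled FOXR2 with 3 titled Control, and Benjamini-Hochberg adjustment ran over all 13101 genes with a threshold of 0.05. CPM values are TMM-scaled, ± after a log2 fold change is its standard error, the prior count was 0.125, and ranges used log2(CPM + 0.5). Lengths are of the longest GENCODE transcript. Depth was 13429489 to 17927025 counts, and libraries of the same title differed by more than sampling noise (median chi-square per gene at least 8.37).

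Alternatives were no filter on low counts, total-count scaling, RLE factors, DESeq2 1.42.0, limma-voom (limma 3.58.1), the replicate number as a block, animal sex (told from sex-linked genes), an offset for length and GC (mgcv 1.9.3, values for 99.5% of tested genes and 31 of 31 tested members) and each library left out. Leaving out FOXR2 replicate 2 and Control replicate 3 together was added after seeing the data. The tests were tested on simulated data. The members and gene lists were chosen with earlier results of these data known. Values in every library are given for the 3 genes of each stage with the smallest p, the 3 with the highest mean CPM and, for the 2 later stages, the 3 with the widest range. Other genes given in full were chosen after their values were seen.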

Additional observations from a re-analysis of the deposited data

How the results depend on the processing

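Over all genes, edgeR called 119 higher under the FOXR2 title and 181 lower. DESeq2 called 947 and 947, the length and GC offset 71 and 84, animal sex as a covariate 7 and 0, and total-count scaling 119 lower. The titles do not say what the replicate numbers stand for. Deviations of same-numbered libraries from their group means correlated with r of -0.02, -0.24 and -0.01. With so few libraries, these values do not settle whether the numbers pair the libraries. With the replicate block 0 and 0 genes were called (2652 at an unadjusted p under 0.05). With 1 library left out, 1 to 123 were called higher and 0 to 82 lower, the largest counts without FOXR2 replicate 2 and at most 9 and 1 without any other library. Leaving out both FOXR2 replicate 2 and Control replicate 3 gave 54 and 16. Among the members, 0 were called higher or lower by edgeR under each of these settings, and DESeq2 called 2 higher.

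Fitted log2 fold changes changed sign with 1 library left out for 20 members, none of them called. Their ranges were Bcan -0.14 to 0.27, Tnr -0.25 to 0.52, Nkx2-2 -1.32 to 0.05, Matn4 -1.20 to 0.76, Gpr17 -1.46 to 0.20, Bcas1 -0.83 to 0.98, Enpp6 -3.35 to 4.69, Itpr2 -0.63 to 0.15, Neu4 -0.45 to 1.89, Zfp488 -0.72 to 0.24, Mbp -0.95 to 1.48, Mag -5.10 to 2.02, Cnp -1.35 to 0.60, Cldn11 -1.58 to 0.80, Opalin -0.14 to 1.65, Ugt8a -0.75 to 0.58, Fa2h -1.87 to 0.57, Gjc3 -0.07 to 0.55, Mal -2.54 to 2.12 and Tspan2 -0.57 to 0.79. With FOXR2 replicate 2 and Control replicate 3 both left out, Tnr stood at 0.69. The lowest values came mostly without FOXR2 replicate 2 and the highest mostly without Control replicate 3. Signs also turned for Bcan without the filter (-0.01), for Tnr (-0.04), Matn4 (0.11), Bcas1 (0.19) and Tspan2 (0.15) with sex, and for Tnr with the length and GC offset (-0.32). They turned for Bcas1 (0.11), Mbp (-0.12) and Tspan2 (0.06) with limma-voom, and Bcas1 reached 0 with total-count scaling. With the replicate block they turned for Bcas1 (0.01), Enpp6 (-0.37), Mbp (-0.64), Ugt8a (-0.07), Mal (-0.57) and Tspan2 (0.08). With both libraries left out they turned for Matn4 (0.03), Bcas1 (0.21), Enpp6 (-0.17), Itpr2 (0.04), Mbp (-0.29), Ugt8a (-0.52) and Tspan2 (0.56). The cause was not tested. Among members that kept their sign with 1 library left out, the fold change ran from -2.11 to -0.87 for C1ql1, -4.03 to -0.69 for Gpr37 and 1.31 to 3.50 for Trf. Ptprz1 kept its direction throughout, from 0.77 with the length and GC offset to 1.17 without Control replicate 1. Counts near 3 limit Mog, Mobp, Ermn and Aspa outside FOXR2 replicate 2.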
